A study of Equus asinus with 12 samples.

Results

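The growth control genes described here are the insulin-like growth factor (IGF) axis and the myostatin axis of skeletal muscle: IGF1, IGF2, IGF1R, IGFBP3, IGFBP4, IGFBP5, MSTN, ACVR2B, FST and SMAD3. Members were found by name in the table of expression values, and where several loci carried a name the one with the highest mean over the 12 libraries was taken. Of the 10 names 9 had a row, among 27084 loci in all, and IGFBP3 was not analysed here. RNA-seq was performed on muscle of the Dezhou donkey (Equus asinus) in 4 groups of 3 libraries: Wutou gluteal muscle, Wutou longissimus dorsi, Sanfen gluteal muscle and Sanfen longissimus dorsi. Wutou and Sanfen are named as breeds in the labels and as strains in the title of the study. Gluteal muscle moves the hip and longissimus dorsi runs along the back. All animals were 24 months old and no treatment is named. The design text speaks of 6 donkeys, but which libraries share an animal is not labelled, and each p therefore reflects variation among libraries, which may be technical.

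IGF1 and IGF2 are secreted growth factors that bind the receptor IGF1R and, through PI3K, AKT and mTOR, raise protein synthesis and muscle fibre growth. Their binding proteins, among them IGFBP4 and IGFBP5, hold them in the extracellular space and set how much reaches the receptor. Myostatin, the product of MSTN, is a secreted factor of the TGF-beta family that restrains muscle mass. It binds the activin receptor ACVR2B, which leads to phosphorylation of SMAD2 and SMAD3, and follistatin, the product of FST, binds and blocks myostatin and activins.

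Values are FPKM, fragments per length of transcript and per depth of the library, and since they are per length they can be compared between genes. Summed FPKM ran from 214564 to 319767 per library, reads per library are unknown, and no counting interval can be given. Muscle fibre markers were present in all libraries, with a summed FPKM over 10 markers of 24656 to 35302 and ACTA1, the skeletal muscle actin, at a mean of 10803, while TNNT3, the fast troponin T, averaged only 1.27. Sanfen gluteal replicate 1 and Sanfen longissimus replicate 2 stood apart in fibre type. Their summed FPKM over 11 slow fibre genes was 7740 in Sanfen gluteal replicate 1 and 5664 in Sanfen longissimus replicate 2, against 2539 to 4701 in the other 10 libraries. Over 10 fast fibre genes it was 10362 in Sanfen gluteal replicate 1 and 7053 in Sanfen longissimus replicate 2, against 13918 to 21754 in the other 10. In bulk tissue, fewer cells of a type and less RNA per cell cannot be told apart.

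IGFBP5, IGF2 and IGFBP4 had the highest levels of the set, and MSTN the lowest. IGFBP5 averaged 27.3 ± 9.96 FPKM (SD, n = 12 libraries), which ranks 503rd among all loci. IGF2 followed at 11.9 ± 3.54, below IGFBP5 and above IGFBP4 in 12 of 12 libraries. Its place rests on an assembled locus, as the IGF2 locus with the reference transcripts averaged 1.21 FPKM. Then came IGFBP4 at 3.02 ± 0.924, IGF1R at 2.55 ± 0.703, ACVR2B at 2.38 ± 1.14, SMAD3 at 1.80 ± 0.811 and IGF1 at 1.63 ± 0.545 FPKM. These 5 differed by less than their spread between neighbours in the order: IGFBP4 lay above IGF1R in 9 of 12 libraries, IGF1R above ACVR2B in 8, ACVR2B above SMAD3 in 8 and SMAD3 above IGF1 in 6. FST averaged 0.915 ± 0.298 FPKM, below IGF1 in 12 of 12 libraries. MSTN averaged 0.240 ± 0.260 FPKM and lay below FST in 11 of 12 libraries.

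**Figure D1:**
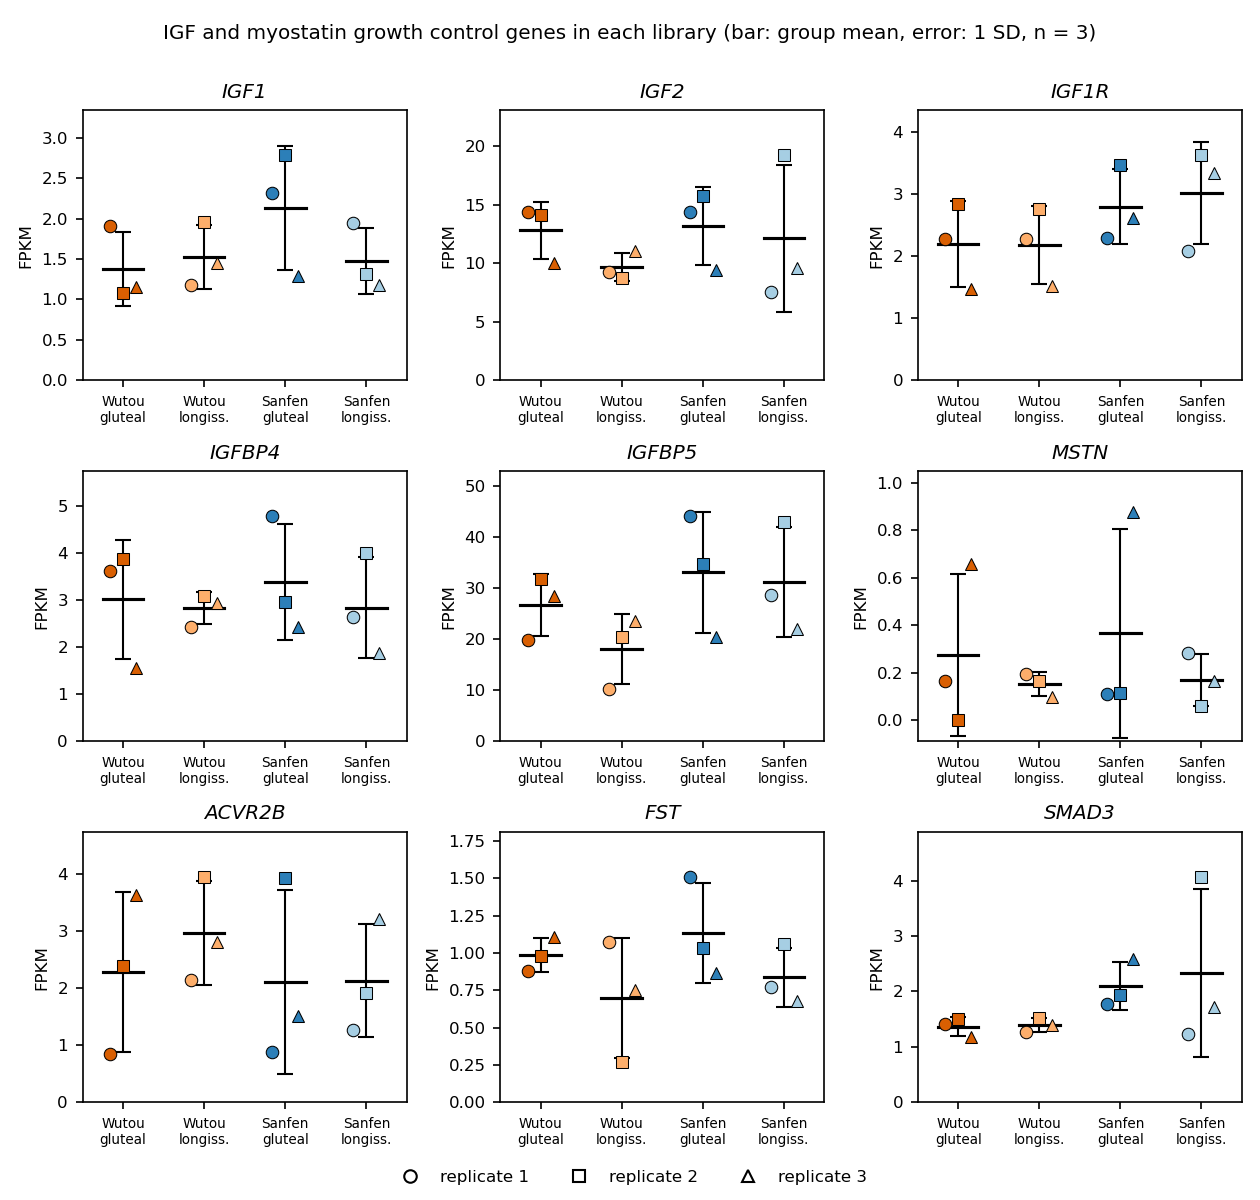
FPKM of the 9 members on the vertical axis in each of the 12 libraries, by group on the horizontal axis, with 1 symbol per library (shape gives the replicate number). Bars are group means and error bars 1 SD, n = 3. The groups overlap in nearly every panel. SMAD3 in gluteal muscle is the exception, at 1.19 to 1.51 FPKM in Wutou and 1.77 to 2.59 in Sanfen.

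Tests asked whether these levels differ between muscles within a strain and between strains within a muscle. The 12408 loci that reached 1 FPKM in 3 or more libraries were tested by limma as log2(FPKM + 1), and p-values were adjusted over all of them by Benjamini-Hochberg, with a threshold of 0.05. Of the 9 members 8 passed this filter. FST passed with 5 libraries at or above 1, spread over all 4 groups, and MSTN had none. Fold changes on this scale understate changes of low genes, and comparisons that share a group of libraries are not independent of each other.

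No member passed in any comparison. Between gluteal and longissimus muscle 0 of 8 passed in Wutou, where 0% of all tested loci passed, and 0 of 8 in Sanfen, where 0.0242% did. Between Wutou and Sanfen 0 of 8 passed in gluteal muscle, with 0.00806% of all loci, and 0 of 8 in longissimus, with 0.0161%. Averaged over strains or over muscles, 0 of 8 passed in each case, with 0% of all loci, and for the interaction of strain and muscle 0 of 8, with 0.00806%. In the fit reported, limma gave 0 of 8 members an unadjusted p under 0.05 in each of these 7 comparisons. No other tool was run. Of the 8 members 1 lay above 0 and 7 below between Wutou and Sanfen in gluteal muscle (median log2 difference -0.20, beside -0.086 for all tested loci), and 3 above and 5 below in longissimus (-0.17 beside -0.056). Between gluteal and longissimus muscle 5 lay above 0 and 3 below in each strain, with a median of 0.0096 in Wutou (0.050 for all loci) and 0.13 in Sanfen (0.085 for all loci).

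**Figure D2:**
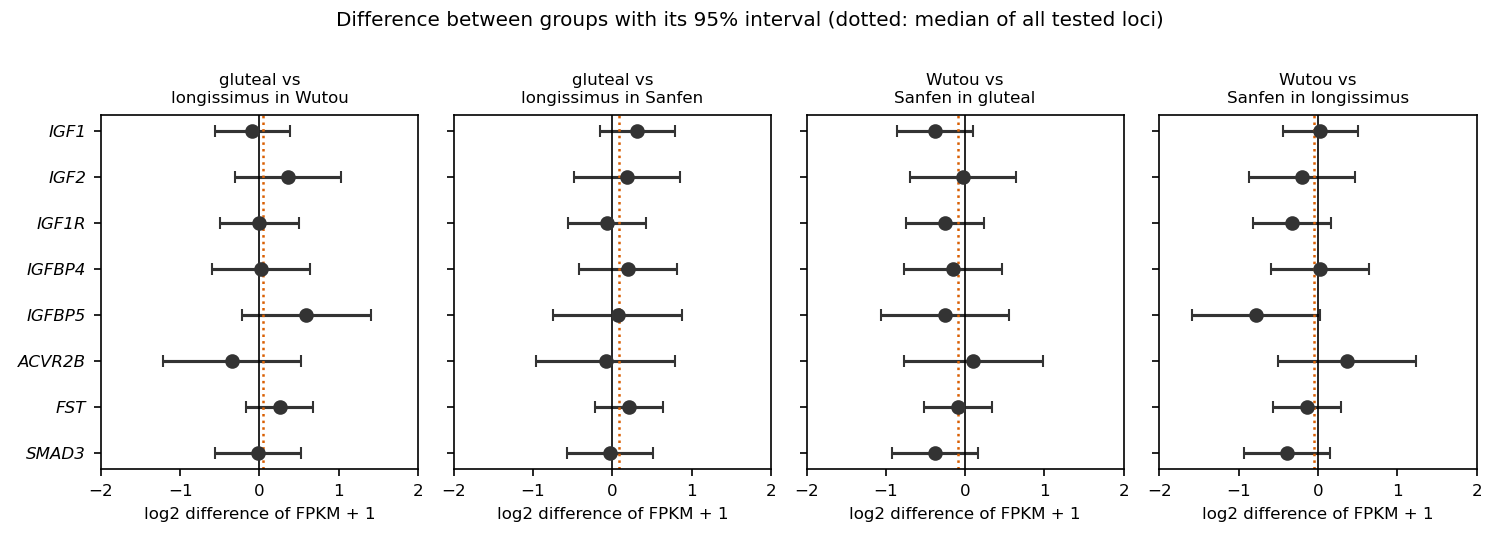
Log2 difference of FPKM + 1 on the horizontal axis for the 8 tested members, in 4 comparisons (gluteal minus longissimus in Wutou and in Sanfen, Wutou minus Sanfen in gluteal and in longissimus muscle), as points with 95% intervals from limma. The dotted line is the median of all tested loci. Every interval includes 0, and the widest reach beyond 1, as for IGFBP5 and ACVR2B.

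IGF1, the ligand made locally in muscle as well as in liver, was low in all groups. It measured 1.91, 1.08 and 1.15 FPKM in Wutou gluteal and 1.18, 1.95 and 1.45 in Wutou longissimus muscle. In Sanfen it measured 2.31, 2.79 and 1.29 in gluteal and 1.94, 1.32 and 1.18 in longissimus muscle. The highest values were those of Sanfen gluteal replicates 1 and 2, while the third replicate of that group lay among the other groups. In gluteal muscle the log2 difference of Wutou minus Sanfen was -0.38 (SE 0.22, 95% interval -0.86 to 0.09, limma adjusted p = 0.963). It was -0.049 with both loci named IGF1 summed, -0.23 without Sanfen gluteal replicate 2 and -0.59 without Sanfen gluteal replicate 3. Within Sanfen, gluteal minus longissimus muscle was 0.32 (SE 0.22, 95% interval -0.16 to 0.79, limma adjusted p = 1), with 0.16 and 0.53 when those same libraries were left out in turn.

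IGF2, the ligand best known for fetal growth, is represented by an assembled locus that carries the gene's name (MSTRG.17336) and holds no reference transcript. That locus lay at 3.88 to 14.6 times the level of IGF1 (median 7.56), whereas the IGF2 locus with the reference transcripts averaged 1.21 FPKM, below IGF1 at 1.63. It measured 14.3, 14.1 and 10.01 FPKM in Wutou gluteal and 9.22, 8.72 and 11.02 in Wutou longissimus muscle. The Sanfen libraries gave 14.4, 15.7 and 9.41 in gluteal and 7.54, 19.2 and 9.55 in longissimus muscle. Sanfen longissimus held both the lowest and the highest library, the highest being its replicate 2. Averaged over strains, gluteal minus longissimus muscle was 0.27 on the log2 scale (SE 0.22, 95% interval -0.20 to 0.75, limma adjusted p = 0.841), 0.46 without that library (adjusted p = 0.777) and 0.15 without Sanfen longissimus replicate 1 (adjusted p = 0.895). After median-of-ratios rescaling it was 0.16. Within Wutou the difference was 0.36 (SE 0.31, adjusted p = 0.919).

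IGF1R, the receptor of both ligands, lay lower in Wutou by its means, with overlapping groups. It measured 2.28, 2.84 and 1.47 FPKM in Wutou gluteal and 2.27, 2.76 and 1.52 in Wutou longissimus muscle. Sanfen libraries were at 2.29, 3.47 and 2.62 in gluteal and 2.08, 3.63 and 3.34 in longissimus muscle. Wutou libraries of the same number were alike in both muscles, as replicate 3 at 1.47 in gluteal and 1.52 in longissimus. Averaged over muscles, Wutou minus Sanfen was -0.30 (SE 0.16, 95% interval -0.65 to 0.06, limma adjusted p = 0.849), and in longissimus alone -0.33 (SE 0.23, adjusted p = 0.860). The longissimus difference was -0.17 without Wutou replicate 3, -0.22 without Sanfen replicate 2 and -0.51 without Sanfen replicate 1.

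IGFBP4, which mostly inhibits IGF action, was the most even member across groups. Its group means were 3.02 ± 1.26 FPKM in Wutou gluteal, 2.82 ± 0.342 in Wutou longissimus, 3.39 ± 1.24 in Sanfen gluteal and 2.84 ± 1.07 in Sanfen longissimus muscle (SD, n = 3 each). The group means accounted for 5.47% of its variance over the 12 libraries on the log2 scale, against a median of 26.6% over all tested loci. Single libraries ran from 1.57 in Wutou gluteal replicate 3 to 4.79 in Sanfen gluteal replicate 1, which stood apart in fibre type. Within Sanfen, gluteal minus longissimus muscle was 0.19 (SE 0.28, 95% interval -0.42 to 0.81, limma adjusted p = 1), and -0.023 without that library. Other alternatives ran from 0.0052 without Sanfen longissimus replicate 3 to 0.40 without Sanfen longissimus replicate 2.

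IGFBP5, which lay above IGFBP4 in 12 of 12 libraries, had its lowest group mean in Wutou longissimus. It measured 19.96, 31.8 and 28.6 FPKM in Wutou gluteal and 10.3, 20.5 and 23.5 in Wutou longissimus muscle. The level in Sanfen was 44.2, 34.7 and 20.4 in gluteal and 28.7, 43.05 and 22.0 in longissimus muscle. The 2 highest libraries were the ones that stood apart in fibre type, and Wutou longissimus overlapped each other group. In longissimus, Wutou minus Sanfen was -0.78 (SE 0.37, 95% interval -1.59 to 0.03, limma adjusted p = 0.854), which has the smallest unadjusted p of all member differences in the fit reported (0.0578). Without Sanfen longissimus replicate 2 it was -0.53 (adjusted p = 0.787), and without Wutou longissimus replicate 1, the lowest library of all, -0.44 (adjusted p = 0.866). Array weights gave -0.47. Averaged over muscles it was -0.52 (SE 0.27, adjusted p = 0.842). Within Wutou, gluteal minus longissimus muscle was 0.59 (SE 0.37, 95% interval -0.22 to 1.40, adjusted p = 0.902), and 0.25 without Wutou longissimus replicate 1. Each Wutou gluteal library lay above the Wutou longissimus library of equal number. With replicate number as a fixed block, limma gave an unadjusted p of 0.0419 (adjusted p = 0.665).

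Levels of IGFBP5 and IGFBP4 were correlated across libraries with markers of the blood vessel wall. The summed FPKM of 7 mural and smooth muscle markers, all 7 of them tested and none at 0 in all libraries, ran from 39.3 to 61.9 in Wutou gluteal and from 37.8 to 46.7 in Wutou longissimus muscle. It ran from 36.8 to 81.2 in Sanfen gluteal and from 34.4 to 60.4 in Sanfen longissimus muscle. Across the 12 libraries, the mean log2 level of these markers correlated with IGFBP5 at r = 0.781 (Spearman 0.797, and r = 0.826 without the 2 libraries farthest from the median of IGFBP5). For IGFBP4 it was r = 0.754 (Spearman 0.804, and 0.745 without 2 libraries). The same markers gave r = 0.729 for IGF2 (0.473 without 2 libraries). Fibroblast markers gave 0.716 for IGFBP4 and 0.332 for IGFBP5, and endothelial markers 0.378 for IGFBP4 and 0.580 for IGFBP5. Slow fibre genes gave 0.603 for IGFBP4 and 0.526 for IGFBP5 (0.210 and 0.245 without 2 libraries). Fast fibre genes gave -0.608 for IGFBP4 and -0.678 for IGFBP5 (-0.461 and -0.537 without 2 libraries). Listed genes of the myostatin and activin pathway gave 0.794 for IGFBP4 and 0.410 for IGFBP5. These values share library scaling and are a description. The part of vessel wall cells and of fibre type in the IGFBP5 and IGFBP4 levels was not tested.

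**Figure D3:**
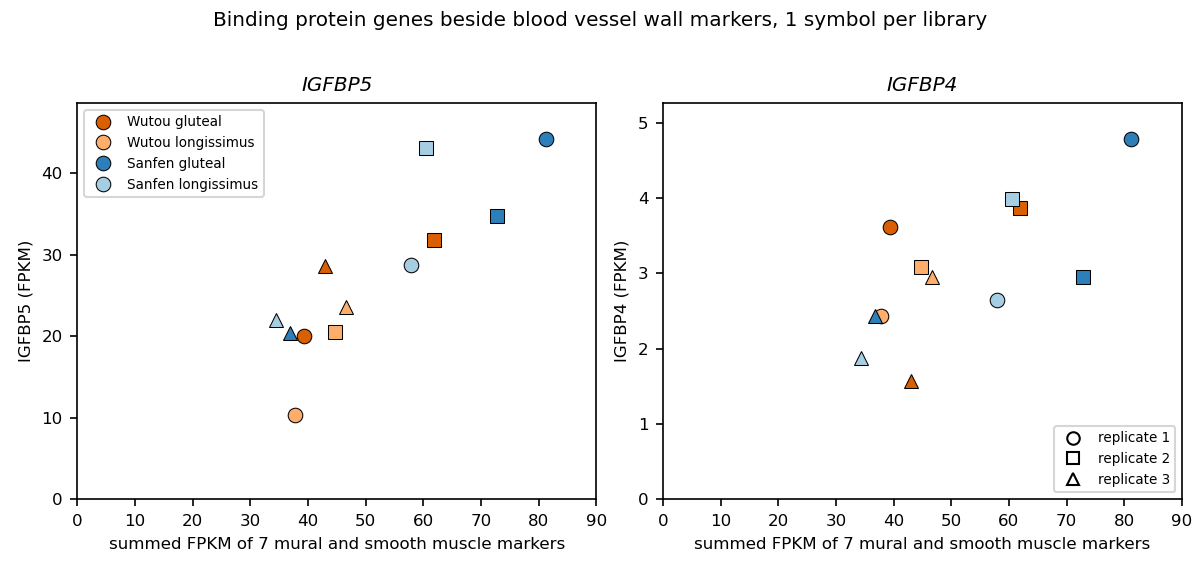
FPKM of IGFBP5 (left) and IGFBP4 (right) on the vertical axis against the summed FPKM of 7 mural and smooth muscle markers on the horizontal axis, with 1 symbol per library, coloured by group and shaped by replicate number. Both transcripts tend to be higher where marker RNA is higher, with exceptions such as Wutou gluteal replicate 3, which has the lowest IGFBP4 (1.57 FPKM) at a marker sum of 42.9.

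MSTN, the myostatin gene, was listed below 1 FPKM in every library. It measured 0.164, 0 and 0.657 FPKM in Wutou gluteal and 0.196, 0.166 and 0.0969 in Wutou longissimus muscle. Sanfen muscle had 0.108, 0.115 and 0.875 in gluteal and 0.282, 0.0606 and 0.165 in longissimus muscle. Replicate 3 of gluteal muscle was the highest library in both strains, and all groups overlapped. At these levels MSTN did not pass the filter. With no filter, Wutou minus Sanfen averaged over muscles was -0.052 for MSTN (95% interval -0.43 to 0.32, limma adjusted p = 0.959) and gluteal minus longissimus averaged over strains 0.15 (95% interval -0.20 to 0.49, adjusted p = 0.896). A difference in MSTN was not detectable at this level.

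ACVR2B, the receptor that binds myostatin and activins, had the widest spread among replicates of the tested members on the log2(FPKM + 1) scale. It measured 0.840, 2.39 and 3.64 FPKM in Wutou gluteal and 2.15, 3.95 and 2.81 in Wutou longissimus muscle. For Sanfen the values were 0.879, 3.93 and 1.52 in gluteal and 1.26, 1.92 and 3.22 in longissimus muscle. Its pooled SD within groups was 0.57 on the log2 scale, the largest of the 8 tested members, against a median of 0.27 over all tested loci. Wutou minus Sanfen in longissimus was 0.36 (SE 0.40, 95% interval -0.51 to 1.23, limma adjusted p = 0.904). It was 0.15 without Sanfen longissimus replicate 1, 0.19 without Wutou longissimus replicate 2, 0.60 without Sanfen longissimus replicate 3 and 0.17 with array weights. The interval of the reported fit holds differences above 1 log2 unit.

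FST, the myostatin antagonist follistatin, was tested near the lower limit of the filter. It measured 0.878, 0.979 and 1.11 FPKM in Wutou gluteal and 1.07, 0.270 and 0.754 in Wutou longissimus muscle. In Sanfen it measured 1.51, 1.03 and 0.867 in gluteal and 0.772, 1.06 and 0.681 in longissimus muscle. The gluteal mean was above the longissimus mean in both strains, with overlap in each. Averaged over strains, gluteal minus longissimus muscle was 0.23 (SE 0.14, 95% interval -0.07 to 0.53, limma adjusted p = 0.791), and within Wutou 0.25 (SE 0.19, adjusted p = 0.919). Without Wutou longissimus replicate 2, the library at 0.270, the Wutou difference was 0.058 and the average 0.13, and without Wutou longissimus replicate 1 the Wutou difference was 0.41. With a pseudocount of 0.1 the average was 0.49 and the Wutou difference 0.59.

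SMAD3, the transcription factor that carries the myostatin and activin signal to the nucleus, had lower means in Wutou in both muscles. It measured 1.40, 1.51 and 1.19 FPKM in Wutou gluteal and 1.27, 1.52 and 1.40 in Wutou longissimus muscle. In Sanfen it measured 1.77, 1.93 and 2.59 in gluteal and 1.23, 4.06 and 1.73 in longissimus muscle. In gluteal muscle all 3 Wutou libraries lay below all 3 Sanfen libraries, while in longissimus the groups overlapped and Sanfen replicate 2 stood far above the rest. Such a separation was seen for 10.9% of all tested loci in that comparison. SMAD3 was the 1 of 8 tested members that showed it there, and 0 of 8 did in each of the other 3 comparisons of single groups, where 7.54% to 12.9% of loci did.

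Averaged over muscles, Wutou minus Sanfen for SMAD3 was -0.38 (SE 0.19, 95% interval -0.81 to 0.04, limma adjusted p = 0.830). It was -0.38 in gluteal (SE 0.25, adjusted p = 0.963) and -0.39 in longissimus muscle (SE 0.25, adjusted p = 0.855). Without Sanfen longissimus replicate 2 the longissimus difference was -0.041 (adjusted p = 0.956) and the average -0.21 (adjusted p = 0.847). Without Sanfen longissimus replicate 1 the longissimus difference was -0.63 (adjusted p = 0.842), and with array weights it was -0.25.

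Slow fibre, tendon and nerve markers had lower group means in Wutou than in Sanfen in both muscles and were not tested as lists. The same direction held for mural, endothelial, satellite cell and adipocyte markers, so it was not particular to them. Fast fibre and immune markers had higher means in Wutou in both muscles. For fast fibre genes these were 17985 against 14783 in gluteal and 21161 against 14448 in longissimus muscle. The summed FPKM of 11 slow fibre genes was 2539 to 2769 in Wutou gluteal and 2739 to 4701 in Wutou longissimus, against 3704 to 7740 in Sanfen gluteal and 2597 to 5664 in Sanfen longissimus muscle. That of 7 tendon genes, 4 of them tested, was 18.8 to 34.9 in Wutou gluteal and 20.9 to 28.8 in Wutou longissimus, against 32.8 to 147.1 in Sanfen gluteal and 34.8 to 110.1 in Sanfen longissimus muscle. This tendon sum rests mostly on 1 gene, THBS4, which averaged 41.3 FPKM over the 12 libraries. TNMD, a defining tendon marker, averaged 0.310 FPKM. For nerve and Schwann cells the sum of 6 genes, 3 of them tested, was 4.31 to 8.62 in Wutou gluteal and 4.63 to 8.44 in Wutou longissimus, against 9.06 to 17.5 in Sanfen gluteal and 7.98 to 11.02 in Sanfen longissimus muscle. SOX10, a defining marker there, averaged 0.191 FPKM, and none of these genes was at 0 in all libraries. Across the 12 libraries SMAD3 correlated with slow fibre genes at r = 0.642 (Spearman 0.783, and r = 0.637 without 2 libraries). For tendon genes it was 0.465 (0.601 and 0.571), and for nerve and Schwann cell genes 0.550 (0.573 and 0.413). Other lists gave values of like size. Fast fibre genes gave -0.672 (-0.371 and -0.255), muscle fibre markers 0.475 (0.748 and 0.620) and mural markers 0.490 (0.399 and 0.517). Only the tested genes of each list enter these values. The part of fibre type and of tendon, nerve or other cells in the SMAD3 levels was not tested.

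Several members have more than 1 locus under their name, and these did not always move together. A further IGF1 locus (MSTRG.19438, an assembled transcript) measured 1.36, 0.461 and 0.490 FPKM in Wutou gluteal and 0, 0.0744 and 0.206 in Wutou longissimus muscle. In Sanfen it was listed at 0.0381, 0.180 and 0.0973 in gluteal and at 0, 0.144 and 0 in longissimus muscle. All 3 Wutou gluteal libraries lay above the other 9. Of all tested loci 12.9% separated between the Wutou muscles and 10.9% between strains in gluteal muscle, in either direction. Those shares are for 3 against 3 libraries, which is easier to meet, and the share for 3 above 9 was not computed. This IGF1 locus is not among the tested loci, being under the filter, since 1 library reached 1 FPKM. With no filter, gluteal minus longissimus in Wutou was 0.66 (SE 0.16, unadjusted p = 0.00230, limma adjusted p = 1) and Wutou minus Sanfen in gluteal muscle 0.65 (SE 0.16, unadjusted p = 0.00274, adjusted p = 0.908). Its correlation with the IGF1 locus that holds the reference transcripts was r = -0.010 over 12 libraries (Spearman -0.155, and 0.166 without 2 libraries).

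The IGF2 locus with the reference transcripts (MSTRG.17335) was far lower than the assembled one, at 1.21 ± 0.588 FPKM (SD, n = 12 libraries), and followed it closely (r = 0.826, Spearman 0.825, and 0.798 without 2 libraries). For SMAD3, a further locus (MSTRG.10561) measured 1.68, 2.20 and 1.45 FPKM in Wutou gluteal and 1.42, 0 and 0 in Wutou longissimus muscle. In Sanfen it measured 1.99, 2.61 and 0 in gluteal and 2.24, 5.17 and 1.74 in longissimus muscle. In longissimus, all 3 Wutou libraries lay below all 3 Sanfen libraries (log2 difference -1.50, SE 0.49, unadjusted p = 0.00995, limma adjusted p = 0.854), as 11.8% of all tested loci separated there. With the 3 SMAD3 loci summed, Wutou minus Sanfen was -0.82 in longissimus (SE 0.29, unadjusted p = 0.0158, adjusted p = 0.854) and -0.28 in gluteal muscle (SE 0.29, adjusted p = 0.969). In that sum Sanfen longissimus replicate 2 was at 12.2 FPKM, against 4.21 in replicate 1 and 5.27 in replicate 3. Neither the summed longissimus difference nor that of MSTRG.10561 was recomputed without replicate 2. The separation of the gluteal groups was lost in the sum, with Wutou replicate 2 at 4.75 FPKM and Sanfen replicate 3 at 4.71. The other 2 loci named IGF1R averaged 0.955 and 1.23 FPKM and gave 0 calls in limma.

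**Figure D4:**
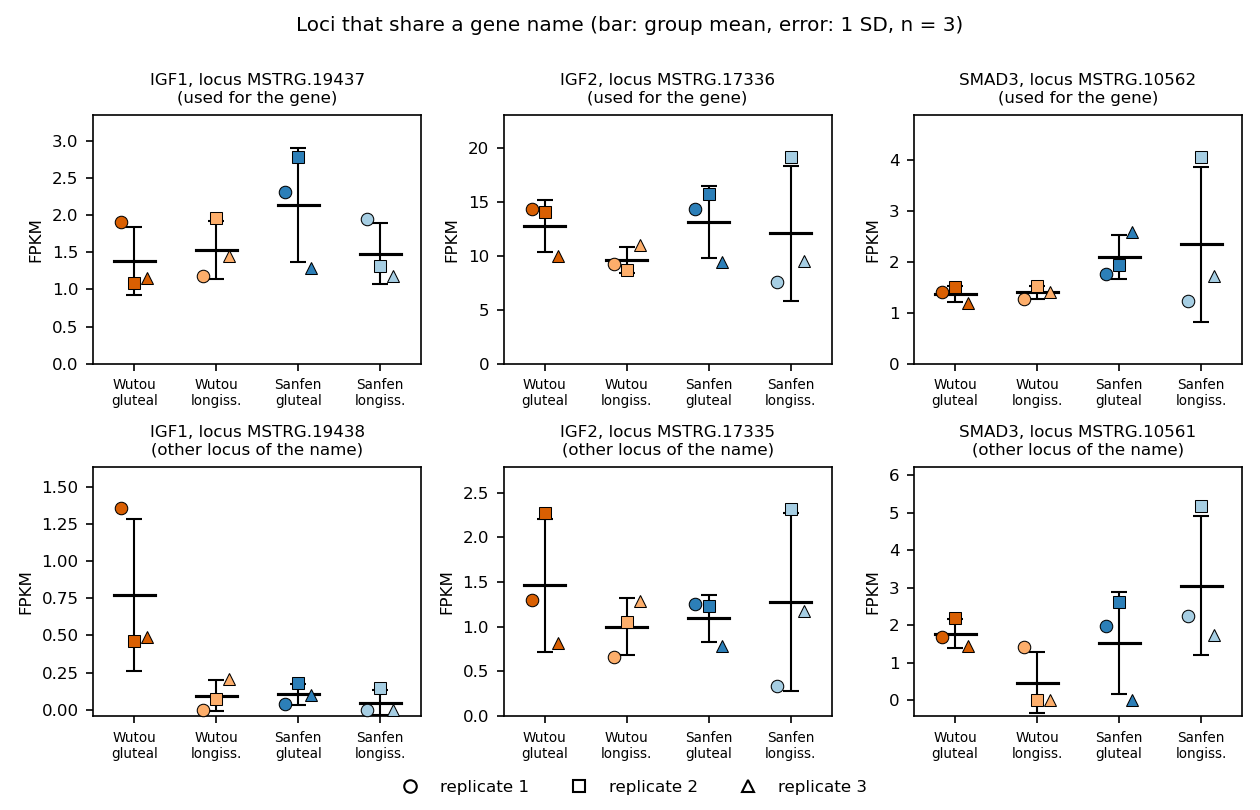
FPKM on the vertical axis of the locus used for IGF1, IGF2 and SMAD3 (top) and of another locus of the same name (bottom), by group on the horizontal axis, with 1 symbol per library. Bars are group means and error bars 1 SD, n = 3. The other IGF1 locus lies at 0.461 to 1.36 FPKM in Wutou gluteal muscle and at or below 0.206 in the remaining 9 libraries.

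Among themselves the 8 tested members varied together only in part. Of the 28 pairs 20 had a positive correlation of log2(FPKM + 1) over the 12 libraries, with a median r of 0.242. The ligand IGF2 had 4 of the 5 pairs above 0.5, with IGFBP4 (r = 0.660, Spearman 0.601, and 0.675 without 2 libraries), IGFBP5 (0.602), SMAD3 (0.571) and FST (0.516). Without the 2 libraries farthest from the median of IGF2 the pair with SMAD3 had r = 0.086. The fifth pair was IGF1R with SMAD3 (r = 0.652, Spearman 0.839, and 0.654 without 2 libraries). ACVR2B was negatively correlated with IGFBP4 (r = -0.509, Spearman -0.343, and -0.199 without 2 libraries). The libraries share their scaling, and the median r of all tested loci was 0.154 with IGF2 and 0.164 with IGFBP5.

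**Figure D5:**
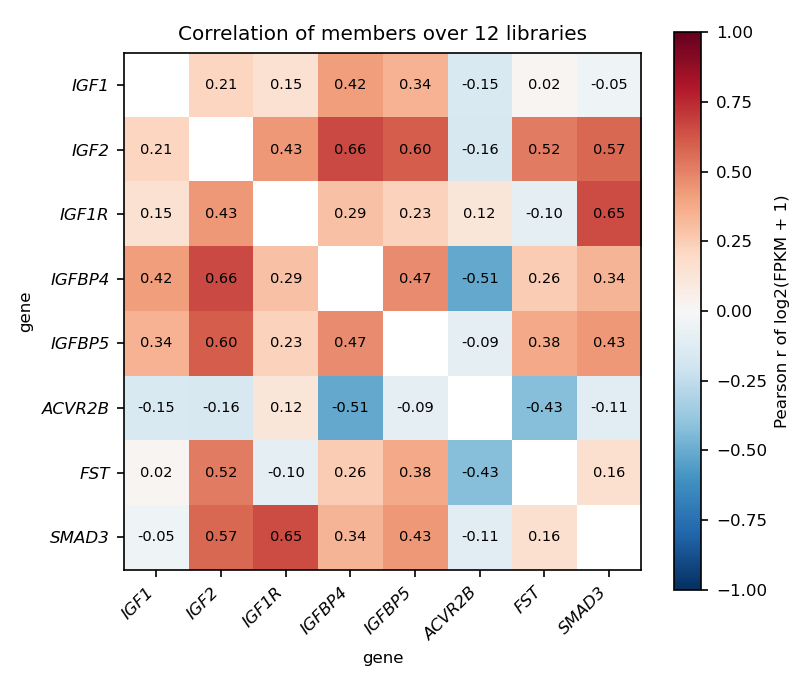
Pearson correlation of log2(FPKM + 1) over the 12 libraries for each pair of the 8 tested members, with genes on both axes and r as colour and number. IGF2 correlates with both binding proteins, at 0.66 with IGFBP4 and 0.60 with IGFBP5, and ACVR2B has its lowest value, -0.51, with IGFBP4.

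The genes most like IGF2 across the 12 libraries, among 9321 other tested loci with a gene symbol, were GRK6, a kinase of G protein-coupled receptors (r = 0.928), ABCC10, a membrane transporter (r = 0.915), and H3F3B, a histone H3.3 gene (r = 0.910). For IGFBP5 they were ZBED5 (r = 0.930), CMTM3 (r = 0.897) and CSRP1, a LIM protein of smooth muscle (r = 0.897). Without the 2 libraries farthest from the median these values were 0.805 to 0.915. A correlation above 0.5 was reached by 14.5% of all tested loci with IGF2 and 13.4% with IGFBP5. The named genes were picked as the highest of all these correlations, so their r is raised by selection. GRK6, ABCC10, ZBED5 and CMTM3 averaged 1.155, 0.884, 1.52 and 1.40 FPKM, near the filter.

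Other genes of the pathways gave 0 calls in limma in each of the 7 comparisons, in either direction. Of 28 listed genes of IGF signalling 14 were tested, of 28 genes of the AKT and mTOR arm 24, of 35 genes of the myostatin and activin pathway 25, and of 19 genes of the related BMP arm 11. Most genes with an unadjusted p under 0.05 in a list were 4 of the 14 IGF signalling genes, between the Wutou muscles, where 5.68% of all tested loci had one. In Wutou against Sanfen longissimus, 3 of the 14 IGF signalling genes were above 0 and 11 below, with a median log2 difference of -0.12 beside -0.056 for all tested loci. Among the 25 myostatin and activin genes 10 were above 0 and 15 below (median -0.082), among the 24 AKT and mTOR genes 12 above and 12 below (median -0.0020), and among the 11 BMP genes 4 above and 7 below (median -0.14). In gluteal muscle 6 IGF signalling genes were above 0 and 8 below, with a median of -0.021 beside -0.086 for all tested loci. There the myostatin and activin genes had 11 above and 14 below (median -0.053), the AKT and mTOR genes 11 above and 13 below (-0.021) and the BMP genes 3 above and 8 below (-0.16).

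In IGF signalling, GHR, the growth hormone receptor, averaged 2.18 ± 0.450 FPKM in Wutou longissimus and 3.43 ± 0.420 in Sanfen longissimus muscle (SD, n = 3 each, limma adjusted p = 0.854). Within Wutou it averaged 3.49 ± 1.34 in gluteal muscle, above its longissimus mean (log2 difference 0.47, adjusted p = 0.870, and 0.24 without Wutou gluteal replicate 3). JAK2, the kinase that GHR activates, averaged 1.47 ± 0.250 in Wutou gluteal and 0.936 ± 0.0913 in Wutou longissimus muscle (adjusted p = 0.870, 1 of 6 loci of that name). INSR, the insulin receptor, averaged 6.09 ± 0.746 FPKM in Wutou longissimus and 8.77 ± 2.95 in Sanfen longissimus muscle (adjusted p = 0.854), with 6.60 ± 0.785 in Sanfen gluteal muscle. Without Sanfen longissimus replicate 2, at 12.2 FPKM, the log2 difference for INSR between strains was -0.19 in place of -0.43, and that between the Sanfen muscles -0.093 in place of -0.33. HTRA1, a secreted protease that cleaves IGF binding proteins, averaged 7.07 ± 0.888 in Sanfen gluteal and 5.53 ± 0.848 in Sanfen longissimus muscle (adjusted p = 1). The adaptors SHC1 and GAB1 had the smallest p in gluteal muscle between strains. SHC1 averaged 3.29 ± 0.263 FPKM in Wutou and 4.61 ± 0.571 in Sanfen, and GAB1 1.12 ± 0.162 in Wutou and 1.92 ± 0.512 in Sanfen, each at limma adjusted p = 0.963. The GAB1 locus is 1 of 5 of that name, and the INSR locus 1 of 2.

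In the AKT and mTOR arm, RPS6KB2, a ribosomal S6 kinase, had a higher mean in Wutou longissimus than in Wutou gluteal or Sanfen longissimus muscle. Its level in Sanfen gluteal muscle is not given here. It averaged 9.16 ± 1.96 FPKM in Wutou gluteal, 13.9 ± 1.60 in Wutou longissimus and 9.38 ± 1.41 in Sanfen longissimus muscle (adjusted p = 0.870 between the Wutou muscles and 0.854 between strains in longissimus). The Wutou longissimus libraries lay above those of the other group in both comparisons. Such a separation was shown by 12.9% of all tested loci between the Wutou muscles and 11.8% between strains in longissimus. PIK3R1, a regulatory subunit of PI3K, averaged 7.66 ± 3.08 in Wutou gluteal and 3.93 ± 0.776 in Wutou longissimus muscle (adjusted p = 0.870). In Sanfen it averaged 7.55 ± 1.34 in gluteal and 5.45 ± 2.69 in longissimus muscle (log2 difference 0.50, adjusted p = 1). Without Sanfen longissimus replicate 2, at 2.44 FPKM, the PIK3R1 difference in Sanfen was 0.096, without Sanfen longissimus replicate 1 it was 0.76, and that in Wutou was 0.49 in place of 0.77 without Wutou gluteal replicate 3. DDIT4, an inhibitor of mTOR complex signalling, averaged 4.21 ± 2.97 in Wutou gluteal and 7.26 ± 2.73 in Sanfen gluteal muscle (adjusted p = 0.963), with 4.26 ± 2.02 in Sanfen longissimus. The DDIT4 difference between strains, -0.75, was -0.40 without Wutou gluteal replicate 1 and -1.18 without Wutou gluteal replicate 2, and that between the Sanfen muscles, 0.67, was 0.31 without Sanfen longissimus replicate 2. DEPTOR, another inhibitor of mTOR, averaged 2.59 ± 1.49 in Wutou and 4.43 ± 1.06 in Sanfen longissimus muscle (log2 difference -0.67, adjusted p = 0.854, and -0.35 without Wutou longissimus replicate 1). The DEPTOR locus is 1 of 2 of that name. PIK3CA, the catalytic subunit of PI3K, averaged 3.46 ± 0.306 in Wutou and 2.72 ± 0.502 in Sanfen gluteal muscle (log2 difference 0.27, adjusted p = 0.963, and 0.18 without Sanfen gluteal replicate 3).

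In the myostatin and activin pathway, TLL2, a protease that frees myostatin from its propeptide, averaged 0.449 ± 0.229 FPKM in Sanfen gluteal and 2.30 ± 1.17 in Sanfen longissimus muscle, with no overlap, as for 7.54% of all tested loci (log2 difference -1.13, SE 0.39, limma adjusted p = 1). In Wutou gluteal muscle TLL2 averaged 1.48 ± 1.73, and its difference from Sanfen gluteal muscle, 0.57, was 0.037 without Wutou gluteal replicate 1 and 0.90 without Wutou gluteal replicate 3. The TLL2 locus is 1 of 2 of that name. SMAD7, the inhibitory SMAD, averaged 1.02 ± 0.633 in Wutou longissimus and 2.34 ± 0.626 in Sanfen longissimus muscle (adjusted p = 0.854), and 1.91 ± 0.661 in Wutou gluteal muscle. Without Wutou longissimus replicate 2 the SMAD7 difference between strains was -0.47 in place of -0.77, and that between the Wutou muscles 0.27 in place of 0.56. TGFB2, a ligand of the same family, averaged 1.004 ± 0.385 in Wutou and 2.32 ± 0.823 in Sanfen longissimus muscle (adjusted p = 0.854). INHBB, a subunit of activin B, averaged 0.727 ± 0.202 in Wutou and 1.57 ± 0.818 in Sanfen gluteal muscle (log2 difference -0.53, adjusted p = 0.963, and -0.30 without Sanfen gluteal replicate 2). FSTL3, which binds activins and myostatin as follistatin does, averaged 2.21 ± 0.853 in Wutou gluteal and 1.04 ± 0.365 in Wutou longissimus muscle (adjusted p = 0.870). FSTL1, a secreted protein related to follistatin, averaged 30.7 ± 10.8 in Sanfen gluteal and 19.03 ± 3.28 in Sanfen longissimus muscle (log2 difference 0.62, adjusted p = 1, and 0.37 without Sanfen gluteal replicate 1).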

How the data were processed

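Per the labels, muscle was frozen on dry ice, RNA was taken up in Trizol and Illumina libraries were made from total RNA. Cutadapt, Bowtie2 and TopHat2 are named in the submitters' processing notes, without versions. The deposited values are FPKM for each locus per the file headers, which record no further scaling. The genome build and the quantifier are not given in the sources used here. Ratios of low values between libraries shared no common step (at most 1.22% of them lay at the commonest ratio), so depth is unknown.

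Values were fitted as log2(FPKM + 1), a pseudocount of 1, by limma 3.58.1 (R 4.3.3) in 1 model of the 4 groups with a variance trend. Adjustment by Benjamini-Hochberg covered the 12408 loci that reached 1 FPKM in 3 or more libraries. The fit without a block was also run on simulated data with independent noise, whose outcome is not given here and is not used as support. For the strain average, libraries of 1 strain with equal number formed a random block (statmod 1.5.0, consensus correlation 0.188). Members and gene lists were chosen with earlier results of these data known. Named genes are all members, the 2 of each of 3 pathway lists with the smallest p in each comparison of single groups, other loci of a member's name, and the 3 loci most correlated with each member above a mean of 5 FPKM. Alternatives are given in the closing section. Python 3.11.15 was used for tables and plots, with pandas 2.3.3, numpy 2.4.6, scipy 1.17.1 and matplotlib 3.10.9.

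Whether equal replicate numbers pair gluteal with longissimus libraries was checked by correlating their deviations from group means. For equal numbers it was 0.246, 0.110 and 0.158 in Sanfen, above the limit of 0.1, and 0.182, 0.164 and 0.0711 in Wutou. All 3 Sanfen pairs passed this limit and 1 Wutou pair did not. For unequal numbers it ran from -0.149 to -0.0008 in Sanfen and from -0.169 to 0.0126 in Wutou. Each value for equal numbers lay above all of these, in both strains. Deviations cancel out within a group, so positive values for equal numbers push those for unequal numbers below them. The contrast is thus not independent evidence of pairing. The muscle comparisons reported have no block, with the fixed block as an alternative. The random block of the strain average covers both strains, Wutou included.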

Additional observations from a re-analysis of the deposited data

How the results depend on the processing

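The count of members called was 0 in all 7 comparisons under each of these alternatives: a pseudocount of 0.1, no filter (9 members tested), a filter at an FPKM of 5 (2 members tested), median-of-ratios rescaling, array weights, summed loci, and each library left out in turn (0 to 0). It was also 0 with only the libraries compared, which was run for the 4 comparisons of single groups. With the replicate block, fixed for the muscle comparisons and random for the strain comparisons, it was 0 as well, and so it was for the strain average with no replicate block. The block changed no call. The smallest adjusted p of a member in any setting was 0.591. Of 56 member differences 31 changed sign in at least 1 alternative, none of them larger than 0.34 in the fit reported. Of 40 single differences, each recomputed under the alternatives that apply to it, IGFBP4 between the Sanfen muscles changed sign, running from -0.023 (without Sanfen gluteal replicate 1) to 0.40 when 1 library was left out. A pseudocount of 0.1 gave larger differences for several genes near 1 FPKM, such as -2.08 in place of -1.13 for TLL2 between the Sanfen muscles. Rescaling moved the median of all loci by less than 0.1. Depth is unknown, so no counting limit can be set, and MSTN lay too low for the filter.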
